A study of Mus musculus with 24 samples.

Results

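Lung gene expression was compared between 6 transgenic (TG) mice of 2 strains that the sample labels call emphysematous (AKR/J and BALB/cJ, label emp) and 6 TG mice of 2 strains labelled non-emphysematous (129 and C3H, label nonEmp). These 12 mice were picked by their strain, genotype and emphysema label out of 24 mice in the series. Both this comparison and the gene lists used below were chosen with earlier results of these data known. Each of the 4 strains contributed 3 TG mice and 1 wild-type (WT) mouse, and the 4 WT mice served as the baseline of the same strains. All TG mice carried an inducible TGF-β1 transgene, and all mice, WT included, drank doxycycline, the inducer, for 2 weeks before total RNA was taken from the right lung. Mice of A/J and C57BL6/J have NULL as their emphysema label. They entered the estimate of the spread and the choice of a probe set for each gene, but not the contrasts. The sample labels shorten the strain names to AKR, BC, S129 and C3H. The sources used here do not give how emphysema was scored, which promoter drives the transgene, or the age, sex and time of harvest of the mice.

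The label follows the strain exactly, so a difference that emphysema brings and a difference between these strains cannot be told apart. The fibrosis names do not follow it: the series design lists AKR/J as fibrosis-prone and BALB/cJ (written Balb/cJ there), C3H and 129 as resistant, whereas the fibrosis code given with each sample, taken at its stated meaning, puts AKR/J among the resistant mice and the other 3 among the prone.

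Emphysema is the enlargement of the distal airspaces through loss of alveolar walls. Elastic fibres, built on fibrillin microfibrils and cross-linked by lysyl oxidases, give the alveolar wall its recoil, and elastases, metalloproteinases and cathepsins degrade them while serpins, secretory leukocyte protease inhibitor and TIMPs hold these enzymes in check. TGF-β1 drives matrix deposition and, in mouse lung, can lead to both fibrosis and airspace enlargement. Retinoic acid signalling takes part in the forming of alveoli in rodents, and alveolar macrophages are a main source of elastolytic enzymes.

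Values are log2 intensities of 1 probe set for each of 13499 genes, so a difference of 1 is a doubling and levels are not compared between genes. Differences are emp minus nonEmp or TG minus WT, given ± SE from limma, and a gene is called where its adjusted p was under 0.05. Main lung markers were high on all 24 arrays, with Sftpc (surfactant protein C of alveolar type 2 cells) at 14.21 to 14.46, Ager (type 1 cells) at 12.69 to 13.54, Scgb1a1 (club cells) at 13.41 to 14.14 and Pecam1 (endothelium) at 11.81 to 12.47. None of these 4 was called for the label, nor were Aqp5 (type 1) and Sftpd (type 2). Other markers of these cells were called, Pdpn of type 1 cells (0.30, limma adjusted p = 0.0018) and Scgb3a2 of club cells (-0.46, limma adjusted p = 0.04). The 4 markers therefore do not show that the cell make-up was equal. Pairs of mice within a group had Pearson correlations of 0.9916 to 0.9972 across genes. Tgfb1 itself was not analysed here. No source says that the mice of a group came from separate litters, so p-values measure the spread between these mice.

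Some mice stood apart from their groups. TG 129 mouse 1 had a mean of 9.29 over 13 neutrophil and eosinophil genes, while the other 11 TG mice of the comparison lay at 7.43 to 8.05. TG BALB/cJ mouse 3 differed from the other BALB/cJ TG mice in clock genes, described below, and in Zhx2, Cryzl2 and Chil3. The WT BALB/cJ mouse lay nearer to TG mouse 3 in these genes, with a clock gene mean of 10.20. TG mouse 3 had 10.24, and TG mice 1 and 2 had 9.40 and 9.55. That WT mouse also had the highest mean over mast cell and platelet genes, 7.79, and every BALB/cJ transgene effect rests on it. Whether these BALB/cJ mice carry the right labels was not tested. TG C3H mouse 2 had Clca1, a goblet cell product chosen here after its values were seen, at 11.70, against 6.88 and 6.49 in its group. Without these TG mice in turn, the count of called genes for the label was 868 without TG 129 mouse 1, 818 without TG BALB/cJ mouse 3 and 678 without TG C3H mouse 2.

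Between emp and nonEmp TG lungs 965 of 13499 genes (7.15%) were called, of which 398 (2.95% of genes) were higher and 567 (4.2%) lower in emp lungs. Of the called genes 22 differed by at least 2-fold, and the median difference of all genes was 0.01. With each array's median set to the same value, 1162 genes were called, and the split turned to 680 higher and 482 lower, so the balance of higher and lower genes depends on the scaling. In 367 genes (2.72%) the 6 emp and the 6 nonEmp TG mice did not overlap, 157 of them (1.16%) with emp above and 210 (1.56%) with emp below. A total of 305 genes (2.26%) were both called and free of overlap, 120 higher and 185 lower.

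The strains behind a label were not alike. AKR/J and BALB/cJ TG lungs differed at 309 genes (2.29%), and 129 and C3H TG lungs differed at 590 (4.37%). Without 1 mouse the first count was 85 (TG BALB/cJ mouse 2) to 164 for each emp mouse except TG BALB/cJ mouse 3, without which it was 326. The second count was 279 (TG C3H mouse 1) to 365 without TG C3H mouse 1 or 3 or TG 129 mouse 2 or 3. Of the 965 genes called for the label, 842 had the same sign in all 4 pairings of an emp with a nonEmp strain, and 50 were called in each of the 4 pairings, 19 higher and 31 lower. Of the 305 genes without overlap, 8 were also called between AKR/J and BALB/cJ and 8 between 129 and C3H. With strain as a random block, 134 genes were called, 53 higher and 81 lower, and 133 of them were among the 965. That fit used a single correlation within strains, 0.2, for all genes and kept the mice as units. It did not set each gene's difference against that gene's own spread between strains. With the 4 strain means as the units, which uses the spread between strains itself, limma called 0 genes, and 935 had an unadjusted p under 0.05. Without AKR/J, so that BALB/cJ stood alone against 129 and C3H, 416 genes were called, and without 129 there were 467, against 1020 without BALB/cJ and 1014 without C3H.

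Veph1, which encodes a pleckstrin homology domain protein, had the largest difference among genes higher in emp lungs without overlap. Its log2 intensity was 9.91, 9.96 and 9.70 in AKR/J and 9.89, 9.90 and 9.17 in BALB/cJ TG lungs, against 7.90, 8.18 and 7.92 in 129 and 8.33, 8.21 and 8.31 in C3H TG lungs. The lowest emp mouse lay well above the highest nonEmp mouse, and the mean difference was 3.06-fold (log2 1.61 ± 0.18, limma adjusted p = 5.6e-05). In WT lungs Veph1 was 8.79 in AKR/J and 8.49 in BALB/cJ, against 7.25 in 129 and 7.45 in C3H (difference 1.29, limma adjusted p = 0.052). Veph1 was also higher in TG than in WT lungs of the emp strains (1.11, limma adjusted p = 0.013), and its transgene effect in the nonEmp strains was 0.80 (limma adjusted p = 0.074). The WT lungs showed the same order of the strains.

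Signalling genes stood among the other leaders. Fgf2, a fibroblast and endothelial growth factor, was 9.85 to 10.33 (median 10.07) in emp TG lungs, against 9.23 to 9.44 (median 9.40) in nonEmp TG lungs, a 1.62-fold difference (0.70 ± 0.08, limma adjusted p = 9e-05). Lgr6, a receptor for R-spondins that strengthens Wnt signalling, was 8.72 to 9.04 in emp and 7.98 to 8.48 in nonEmp TG lungs (0.68 ± 0.08, limma adjusted p = 0.00013). Bdkrb2, the bradykinin B2 receptor, was 8.10 to 8.84 in emp lungs and 7.61 to 8.09 in nonEmp lungs (0.72 ± 0.12, limma adjusted p = 0.0018), so that the groups nearly touched. Hs6st3, which adds 6-O-sulfate to heparan sulfate, was higher by 0.58 ± 0.06 (limma adjusted p = 4.1e-05), with emp mice at 8.22 to 8.98 and nonEmp mice at 7.93 to 8.16.

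RNA genes and immune genes also led. The RIKEN gene 4833420G17Rik was 9.51 to 9.80 in emp and 8.56 to 8.87 in nonEmp TG lungs (0.90 ± 0.07, limma adjusted p = 9e-07). Gas5, a long non-coding RNA that hosts small nucleolar RNAs, was 9.28 to 9.71 in emp and 8.66 to 9.04 in nonEmp lungs (0.60 ± 0.05, limma adjusted p = 2.5e-06). Dubr, another long non-coding RNA, was 10.15 to 10.75 in emp and 9.42 to 9.89 in nonEmp lungs (0.84 ± 0.08, limma adjusted p = 1.2e-05). None of these 3 transcripts overlapped between the labels, and 4833420G17Rik had the widest gap of them. Sh2d1b1, an adaptor of natural killer cell receptors, was higher by 0.75, Bst1, a surface ADP-ribosyl cyclase of myeloid and stromal cells, by 0.62, and Hspe1, the mitochondrial chaperonin cofactor, by 0.65 (limma adjusted p = 0.002, 0.0065 and 0.0038). Rarres1, a retinoid-induced gene in human cells, was higher by 0.86, Gm5148 by 0.76, Fbxo44, an F-box protein, by 0.76 and Tmem267 by 0.67, with limma adjusted p of 0.00055, 0.00017, 0.00042 and 0.0011.

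**Figure D1:**
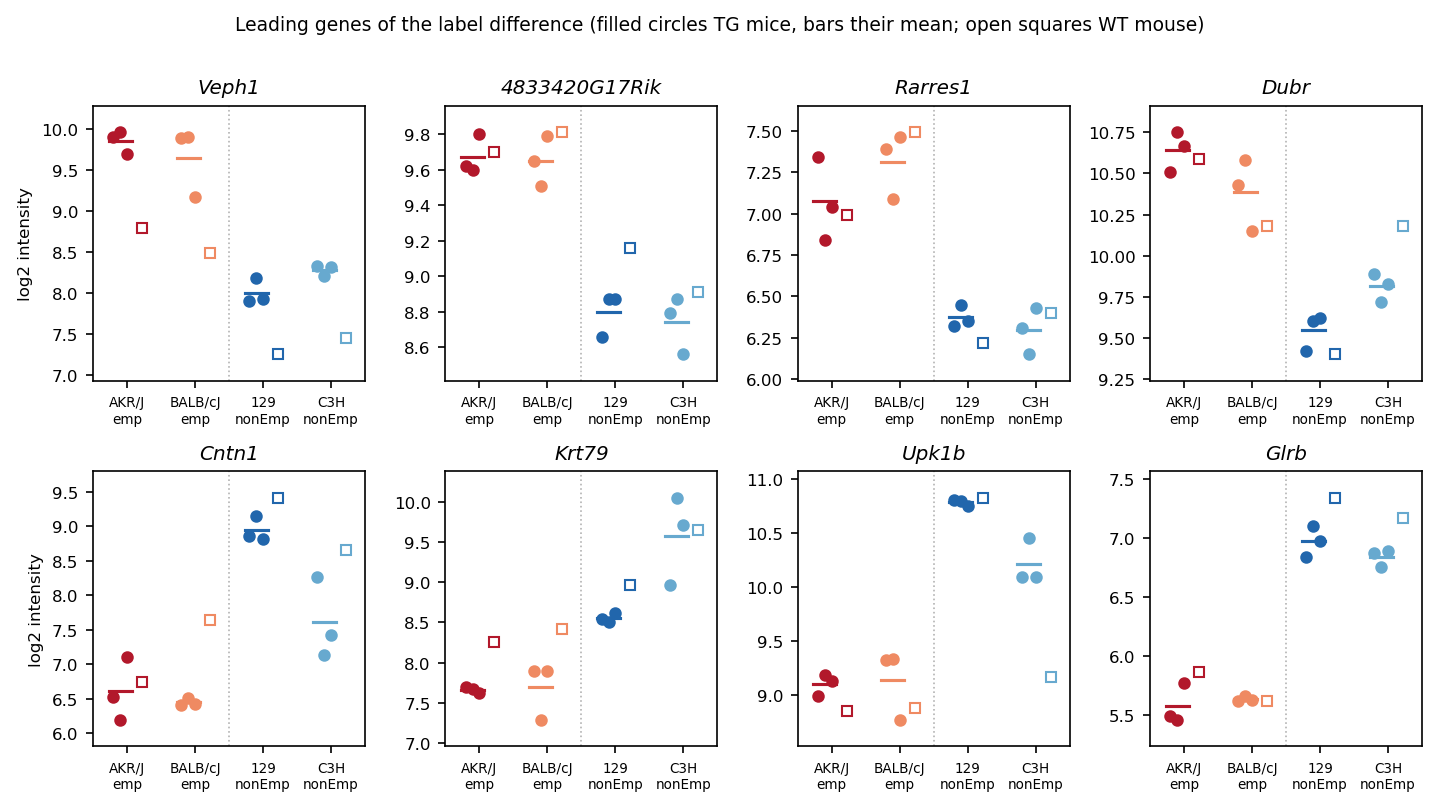
Log2 intensity (y axis) of 8 leading genes in each mouse of AKR/J, BALB/cJ, 129 and C3H (x axis), with TG mice as filled circles, their mean as a bar and the WT mouse as an open square. Veph1 TG values lie at 9.17 to 9.96 in emp strains and at 7.90 to 8.33 in nonEmp strains, and Glrb lies at 5.46 to 5.77 and at 6.75 to 7.10.

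Among called genes lower in emp lungs without overlap, Cntn1, a neural cell adhesion molecule, had the largest difference. It was 6.53, 6.20 and 7.10 in AKR/J and 6.41, 6.51 and 6.43 in BALB/cJ TG lungs, against 8.85, 9.15 and 8.81 in 129 and 8.26, 7.13 and 7.43 in C3H TG lungs (-1.74 ± 0.16, limma adjusted p = 1e-05). The groups did not overlap, but TG AKR/J mouse 3 lay next to TG C3H mouse 2, and without 129 the difference was -1.08. Upk1b, a uroplakin tetraspanin of epithelial surfaces, was 8.77 to 9.33 (median 9.16) in emp lungs, against 10.09 to 10.81 (median 10.61) in nonEmp lungs, and its 2.6-fold difference was clear of overlap (-1.38 ± 0.09, limma adjusted p = 2.3e-07). Glrb, the β subunit of the glycine receptor, was 5.46 to 5.77 in emp and 6.75 to 7.10 in nonEmp TG lungs (-1.30 ± 0.08, limma adjusted p = 4.9e-08). The emp values of Glrb lay below the lower quartile of every array, in the dim range of the platform.

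Htr2b, the serotonin 2B receptor of lung fibroblasts and vessels, was 6.64 to 7.24 in emp lungs and 7.79 to 8.51 in nonEmp lungs (-1.13 ± 0.09, limma adjusted p = 9.3e-07). In WT lungs it was 6.67 in AKR/J and 7.38 in BALB/cJ, against 8.22 in 129 and 9.10 in C3H, a difference of -1.63 (limma adjusted p = 3e-05). Krt79, a keratin that mouse alveolar macrophages express, was 7.29 to 7.90 in emp and 8.50 to 10.05 in nonEmp lungs (-1.38 ± 0.32, limma adjusted p = 0.015), with C3H above 129. Dnase1l3, a secreted DNase of myeloid cells, was 6.60 to 7.93 in emp and 7.99 to 8.55 in nonEmp lungs (-1.04 ± 0.15, limma adjusted p = 0.00061). Mfsd2a, a transporter of lysophosphatidylcholine used for surfactant lipids, was 8.85 to 10.04 in emp and 10.09 to 10.95 in nonEmp lungs (-0.92 ± 0.20, limma adjusted p = 0.0082). Dnase1l3 and Mfsd2a came close to overlapping, and Htr2b and Krt79 did not.

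Cym, the milk-clotting protease chymosin, and Prrg4, a vitamin K dependent membrane protein, differed between the labels in TG lungs and had small differences in WT lungs. Cym was 7.66 to 7.98 in emp TG lungs, against 8.35 to 9.37 in nonEmp TG lungs (-1.10 ± 0.13, limma adjusted p = 0.0001), while the WT values were 7.65 and 7.81 in the emp strains and 7.42 and 7.74 in the nonEmp strains. The transgene effect on Cym was 0.08 in emp strains (limma adjusted p = 0.89) and 1.32 in nonEmp strains (limma adjusted p = 0.00043), and the difference of these effects did not pass the test (-1.25, limma adjusted p = 0.12). Prrg4 was 7.01 to 7.60 in emp and 7.87 to 8.48 in nonEmp TG lungs (-0.90 ± 0.09, limma adjusted p = 3.3e-05), and its transgene effect was 0.08 in emp strains and 0.73 in nonEmp strains (limma adjusted p = 0.83 and 0.0033, and 0.37 for the difference).

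Zhx2, a transcriptional repressor of which BALB/cJ is known to carry a weakly expressed allele, was 9.30, 9.42 and 9.82 in AKR/J and 8.01, 7.96 and 9.30 in BALB/cJ TG lungs, against 9.93 to 10.01 in 129 and 9.98 to 10.06 in C3H TG lungs (-1.03 ± 0.17, limma adjusted p = 0.0012). TG BALB/cJ mouse 3 and the WT BALB/cJ mouse, at 9.37, lay well above the other BALB/cJ mice. Cryzl2 split BALB/cJ the same way, at 8.08, 8.06 and 9.04 in TG mice and 8.87 in the WT mouse. Without BALB/cJ the label difference of Zhx2 was -0.48, against -1.57 without AKR/J. The other genes among the 15 largest were Sntn, described with the cilia, Olfr1342, an olfactory receptor (-1.02), Ccdc190 (-0.94), Cryzl2 (-0.90) and Morn4 (-0.84).

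The 305 called genes without overlap included genes on every chromosome with high coverage (1 to 4 and 10 to 19). There they made up 0.856% (chromosome 17) to 3.18% (chromosomes 3 and 18) of the genes tested. They differed by 0.13 to 1.74 on the log2 scale in either direction (median 0.33), and 11 differed at least 2-fold. Of them 12 had a mean under the arrays' lower quartile, where 18.4% of all genes lay. Runs of neighbouring genes with the same direction numbered 4, of 2 genes each (Rgs4 with Ccdc190, Mipep with Tnfrsf19, Bcdin3d with Faim2, and Gm5148 with Ankrd50). On the chromosomes with high coverage (1 to 4 and 10 to 19), 5.79% to 11.3% of genes were called for the label, with chromosome 18 the highest. Most genes of the other chromosomes were not analysed here.

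In most of these genes the WT lungs differed in the same direction. In WT lungs 138 genes (1.02%) were called for the label, 54 higher and 84 lower, from 1 mouse a strain. Of the 965 genes called in TG lungs, 842 had the same sign in WT lungs, 591 kept at least 50% of their difference there and 86 were called there too, 84 of them with the same sign. Of the 305 genes without overlap, 274 had the same sign in WT lungs and 192 also had no overlap between the WT mice in the same direction, where 34.9% of all genes showed no overlap between 2 and 2 mice in either direction. How many of all genes kept their sign or 50% of their difference in WT lungs was not counted, so these counts stand without that background. The TG and WT differences correlated at r = 0.86 over the 305 genes and at 0.53 over all genes, across genes that are not independent. Among the 30 named leaders, 15 of 15 higher and 14 of 15 lower genes kept their sign in WT lungs, and 0 of 30 were called for the difference between the TG and the WT contrast.

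**Figure D2:**
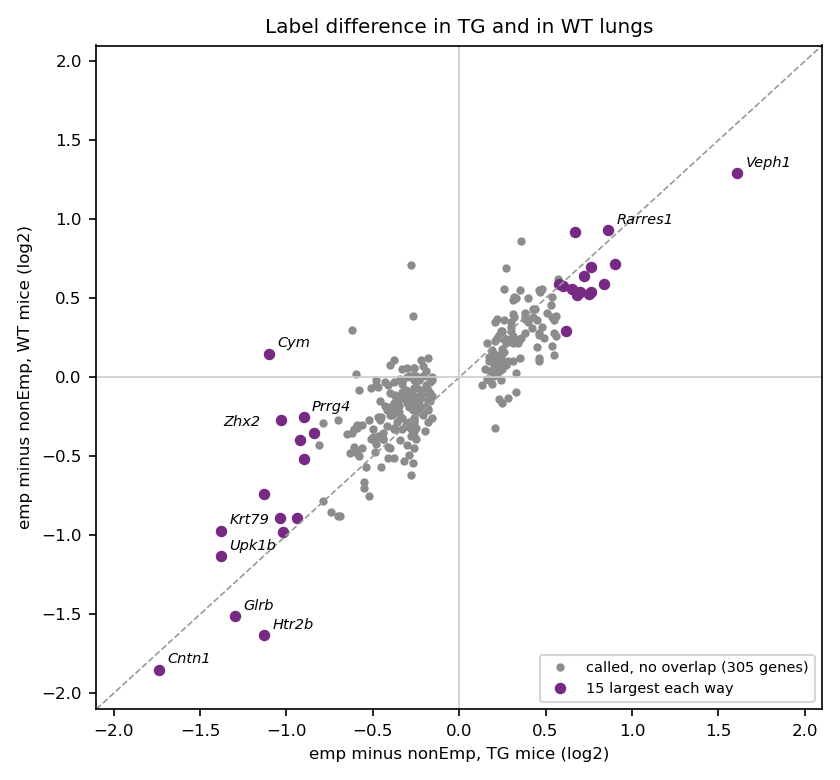
Log2 difference, emp minus nonEmp, in TG mice (x axis) and in WT mice of the same strains (y axis) for the 305 called genes without overlap, with the 15 largest each way in purple and equality as a dashed line. Most points follow the line (r = 0.86), while Cym, at -1.10 in TG and 0.15 in WT mice, and Zhx2, at -1.03 and -0.27, lie off it.

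The largest WT difference was in H2-Ea, an MHC class II chain that strains of the b haplotype do not express. It was 12.77 in AKR/J and 12.21 in BALB/cJ, against 6.78 in 129 and 12.95 in C3H WT lungs (2.63, limma adjusted p = 3.5e-08), and the TG difference of 3.38 ± 0.08 (10.4-fold, limma adjusted p = 7.9e-14) came from 129 as well, at 6.27 to 6.74. Without 129 the differences were -0.46 in WT and -0.05 in TG lungs, so that H2-Ea separated 129 from the other strains. BC018473, the largest lower WT gene, likewise set 129 apart among the 4 strains (the WT A/J mouse, outside the comparison, had 11.01), at 10.61 in that WT mouse and 5.95 to 6.60 in the WT mice of the other 3 strains compared (-2.55, limma adjusted p = 6e-05). Ppbp, a platelet chemokine, was 12.58 in the WT BALB/cJ mouse and 8.37 in the WT AKR/J mouse, against 7.87 in 129 and 8.70 in C3H WT mice (2.19, limma adjusted p = 0.0032), so that 1 mouse sets this value. Gm12250, an interferon-inducible GTPase gene, was 8.17 and 8.71 in the emp WT mice, against 7.31 and 7.24 in the nonEmp WT mice (1.17, limma adjusted p = 0.0053).

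The transgene effect, TG minus WT, was called at 824 genes (6.1%) in the emp strains and at 786 (5.82%) in the nonEmp strains. The emp count was 283 without AKR/J and 242 without BALB/cJ, and the nonEmp count was 99 without 129 and 339 without C3H. MHC class II genes rose together, 8 of 10 in emp strains and 7 of 10 in nonEmp strains, and TGF-β targets rose at 12 and 10 of 29. Elastic fibre genes rose at 7 and 5 of 16 and collagens and their processing enzymes at 7 and 6 of 18, with none lower in either label. Endothelial genes fell at 11 and 6 of 29, airway detoxification genes at 10 and 9 of 24, and club and goblet genes at 8 and 6 of 18, while 1 gene of each of the last lists rose in the nonEmp strains. In none of these lists was a member called for the difference between the labels.

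Only 12 genes (0.0889%) passed the test of that difference, 6 each way, with 1028 at an unadjusted p under 0.05. R3hdml, a secreted protein of the CAP family, was 7.45 to 7.63 in emp and 7.63 to 8.72 in nonEmp TG lungs, and 7.35 and 7.17 in emp against 6.88 and 7.04 in nonEmp WT lungs. The transgene effect on R3hdml was 0.27 in emp strains and 1.19 in nonEmp strains (difference -0.92, limma adjusted p = 0.033). F5, Pf4 and P2ry12, genes of coagulation and platelets, were called with differences of -0.99, -0.91 and -0.83, and each was highest in the WT BALB/cJ mouse, at 7.91, 9.66 and 8.57. Their adjusted p by limma was 0.0064, 0.033 and 0.033. Without BALB/cJ limma called 0 genes for the difference, with 1017 at an unadjusted p under 0.05, and without 129 it called 1. Each strain has 1 WT mouse, whose own deviation enters every one of these values.

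Elastic fibre genes showed no common direction for the label. Of 16 measured, 1 was higher and 3 were lower in emp TG lungs, beside 2.95% of all genes higher and 4.2% lower. The median difference of the list was -0.06. Mfap2, a microfibril protein that lies near a locus for human lung function, was 11.12 to 11.41 in emp and 10.73 to 11.04 in nonEmp TG lungs, without overlap (0.35 ± 0.06, limma adjusted p = 0.0017). In WT lungs it was 11.33 and 11.09 in emp strains, against 10.35 and 10.97 in nonEmp strains (0.55, limma adjusted p = 0.014). Lox, the lysyl oxidase that cross-links elastin and collagen, was 11.05 to 11.49 in emp and 11.46 to 11.88 in nonEmp TG lungs, with a slight overlap (-0.42 ± 0.12, limma adjusted p = 0.048). The call of Lox was kept in 7 of 26 alternative fits, and it was lost when any 1 of the strains was left out. Emilin2, an elastin-associated glycoprotein, differed by -0.49 ± 0.13 without overlap (limma adjusted p = 0.026), or by -0.34 without TG 129 mouse 1, which had 9.68 (limma adjusted p = 0.01). Ltbp1, which tethers latent TGF-β to the matrix, differed by -0.20 ± 0.05 (limma adjusted p = 0.023). Eln itself was not analysed here.

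Proteases and their inhibitors differed at a few genes each. Of 29 matrix proteases 1 was higher and 2 were lower, and of 26 inhibitors 0 were higher and 3 lower, beside 2.95% of all genes higher and 4.2% lower. Adam17, the sheddase that frees TNF and EGF receptor ligands, was 10.48, 10.28 and 10.40 in AKR/J and 10.62, 10.59 and 10.65 in BALB/cJ, against 10.95, 10.90 and 11.04 in 129 and 10.98, 11.08 and 11.06 in C3H TG lungs (-0.49 ± 0.04, limma adjusted p = 2.5e-06). Every emp mouse lay below every nonEmp mouse, and the WT values, 10.23 and 10.58 in emp and 10.78 and 10.83 in nonEmp strains, had the same order (-0.40, limma adjusted p = 0.011). Mmp19, a metalloproteinase of stroma and macrophages, was 8.74 to 9.31 in emp and 9.01 to 9.89 in nonEmp lungs (-0.59 ± 0.17, limma adjusted p = 0.049). The call of Mmp19 was kept in 8 of 26 alternative fits. Prss22, a tryptase-like serine protease, was higher by 0.37 ± 0.07 (limma adjusted p = 0.0035) through AKR/J, at 8.16 to 8.63, with BALB/cJ at 7.26 to 7.36 and a difference of -0.19 without AKR/J.

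Among the inhibitors, Serpina3n, which inhibits serine proteases such as granzyme B and leukocyte elastase in mice, was lower in emp lungs. It was 11.41, 11.68 and 11.32 in AKR/J and 11.68, 11.46 and 12.30 in BALB/cJ, against 12.87, 12.69 and 12.74 in 129 and 12.04, 12.42 and 12.50 in C3H TG lungs (-0.90 ± 0.14, limma adjusted p = 0.00071). TG BALB/cJ mouse 3 alone reached into the nonEmp range. The transgene effect on Serpina3n was 0.89 in emp and 0.62 in nonEmp strains (limma adjusted p = 0.0095 and 0.07), and the WT lungs differed by -1.18 (limma adjusted p = 0.02). Slpi, the secretory leukocyte protease inhibitor of airway epithelium, was 7.92 to 8.14 in emp and 7.97 to 8.88 in nonEmp lungs (-0.37 ± 0.10, limma adjusted p = 0.04). Serpinb6b, an intracellular serpin, differed by -0.27 ± 0.06 without overlap (limma adjusted p = 0.014).

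Genes whose loss is known to enlarge mouse airspaces were called at 4 of 29, and genes near human loci for chronic obstructive lung disease at 3 of 22, beside 7.15% of all genes. The airspace genes were Fgf18, a growth factor of alveolar formation (0.28, higher), and Adam17, Rarb and Hif1a (-0.22), all 3 lower without overlap. The human loci were Mfap2 and Adgrg6, a G protein-coupled adhesion receptor (0.23), both higher, and Dnah5, a dynein heavy chain of cilia (-0.30). The list medians were 0.01 and -0.02.

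Of 27 retinoid genes, 1 was higher and 5 were lower in emp lungs, beside 2.95% of all genes higher and 4.2% lower. The list median was -0.02. Rarb, the retinoic acid receptor β, was 7.82 to 8.22 in emp lungs and 8.42 to 8.75 in nonEmp lungs, without overlap (-0.54 ± 0.08, limma adjusted p = 0.00077). It fell with the transgene in both labels, by 0.60 in emp and by 0.63 in nonEmp strains, and the WT difference of -0.57 did not pass the test (limma adjusted p = 0.066). Lrat, which esterifies retinol for storage, was 10.58 to 12.02 in emp and 11.73 to 12.45 in nonEmp lungs (-0.64 ± 0.18, limma adjusted p = 0.042), low in AKR/J mainly. Rbp4, the retinol carrier, was 8.68 to 9.54 in emp and 9.43 to 9.73 in nonEmp lungs (-0.47 ± 0.09, limma adjusted p = 0.0027). Dhrs3, a retinaldehyde reductase, and Tgm2, a transglutaminase induced by retinoic acid, differed by -0.23 and -0.17, and Rarres1 was the gene that was higher. With array medians set equal 2 retinoid genes were lower, without AKR/J 2, and with strain as a random block 1, Rarb. The count was also 2 without TG AKR/J mouse 1 or 3, TG BALB/cJ mouse 3, TG 129 mouse 2 or TG C3H mouse 1 or 3.

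Genes of ciliated cells had the most called members among the epithelial lists. Of 21 measured, 8 were lower and 0 higher in emp TG lungs, beside 4.2% of all genes lower and 2.95% higher. The list median was -0.23 in TG lungs, while in WT lungs 0 were called and the median was -0.02. Dnah9, an axonemal dynein heavy chain, was 8.69, 8.50 and 8.68 in AKR/J and 8.57, 8.63 and 8.48 in BALB/cJ, against 9.03, 9.11 and 8.96 in 129 and 9.09, 9.08 and 8.81 in C3H TG lungs (-0.42 ± 0.08, limma adjusted p = 0.0048). Dnah12 and Dnah11 differed by -0.45 and -0.37, the central pair protein Spag6l by -0.35, the tektins Tekt4 and Tekt1 by -0.35 and -0.23, Cfap126 by -0.32 and Dnah5 by -0.30. Of these 8, Tekt1 was named after its values were seen. Dnah9 and Dnah11 were free of overlap, and TG C3H mouse 3 lay among the emp mice for Cfap126 and Spag6l. Foxj1, the master regulator of motile cilia, was 8.53 to 8.72 in emp and 8.70 to 8.96 in nonEmp lungs and was not called (-0.19, limma adjusted p = 0.09).

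Sntn (sentan), a protein of the ciliary tip that the list did not hold, was 8.97, 8.68 and 9.17 in AKR/J and 9.33, 9.24 and 9.0 in BALB/cJ, against 10.22, 10.34 and 10.09 in 129 and 10.47, 10.22 and 9.81 in C3H TG lungs (-1.13 ± 0.16, limma adjusted p = 0.00055). Its difference was 2.18-fold and larger than that of any called ciliary list gene. Other ciliary genes outside the list were also lower without overlap, among them Cfap54 (-0.61), Cfap44 (-0.48), Ift57 (-0.42) and Spef2 (-0.39), while Cfap36 (0.21) was higher. These were named after their values were seen. The means of the 21 ciliary genes were 8.68 to 8.81 in emp TG mice, against 8.80 to 9.09 in nonEmp TG mice, and the WT mice lay at 8.87 and 8.96 in emp and 8.93 and 8.92 in nonEmp strains. In whole lung RNA, fewer ciliated cells and less RNA per ciliated cell cannot be told apart. The difference of transgene effects was called for 0 of the 21 genes. The count of 8 was 2 without AKR/J, 2 without 129 and 2 with strain as a random block. It was 2 without TG C3H mouse 1, 3 without TG C3H mouse 2, 3 without TG 129 mouse 2, 5 without TG AKR/J mouse 2 or 3 or TG BALB/cJ mouse 2, and 9 without TG C3H mouse 3.

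Other airway and alveolar lists were mixed. Of 18 club and goblet genes 1 was higher and 3 were lower. Over all genes 2.95% were higher and 4.2% lower, which serves as background for the alveolar lists as well. Bpifa1, a secreted protein of airway lining fluid, was 11.92 to 12.71 in AKR/J and 12.48 to 12.90 in BALB/cJ, against 8.33 to 10.87 in 129 and 11.01 to 12.19 in C3H TG lungs (1.95 ± 0.34, limma adjusted p = 0.0021), so the groups overlapped and 129 was lowest, as in WT lungs, at 7.19. Its relative Bpifb1 was lower in emp lungs (-0.88 ± 0.21, limma adjusted p = 0.016), as were the club cell secretoglobin Scgb3a2 (-0.46) and the GABA receptor subunit Gabrp (-0.40). Type 1 cell genes had 3 of 15 higher, Akap5, a kinase anchor (0.57 ± 0.07, limma adjusted p = 0.0001), Rtkn2 (0.32) and Pdpn, podoplanin (0.30), and 1 lower, Igfbp2 (-0.73). Pdpn turned to -0.09 without 129. Of 22 type 2 cell genes, Chil1 was higher (0.46) and Scd1, a fatty acid desaturase, was lower without overlap, at 13.54 to 13.76 in emp and 13.85 to 14.11 in nonEmp lungs (-0.34 ± 0.06, limma adjusted p = 0.0018).

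Genes of the keratin-rich transitional epithelium that appears in injured alveoli were lower at 4 of 11, beside 4.2% of all genes. Their median was -0.26 in TG and -0.40 in WT lungs. Hbegf, an EGF receptor ligand, was high in C3H alone, at 11.03 to 11.16, against 9.64 to 10.08 in 129, 9.67 to 10.19 in the emp strains, and its difference of -0.54 turned to 0.08 without C3H. Krt8 was 12.11 to 12.63 in emp and 12.58 to 12.98 in nonEmp lungs (-0.34 ± 0.09, limma adjusted p = 0.026), Krt19 differed by -0.33 and Sprr1a, a cornified envelope precursor, by -0.63 without overlap (limma adjusted p = 0.04 and 0.018). Without C3H limma called 0 of the 11, with 4 at an unadjusted p under 0.05, and with strain as a random block it called 0, with 3. The count was 2 without AKR/J, and 2 without TG AKR/J mouse 1 or 3, TG BALB/cJ mouse 2 or 3, TG 129 mouse 3 or TG C3H mouse 2. Krt8 rose with the transgene under both labels, by 0.67 in emp and 0.59 in nonEmp strains.

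Genes of alternatively activated macrophages and type 2 immunity had large but uneven differences. Retnla, a resistin-like effector of type 2 inflammation, was 8.33, 8.43 and 8.61 in AKR/J and 8.91, 8.47 and 8.04 in BALB/cJ, against 10.32, 11.30 and 10.91 in 129 and 9.05, 11.29 and 8.46 in C3H TG lungs (-1.76 ± 0.36, limma adjusted p = 0.0061). The groups overlapped through TG C3H mouse 3, whereas TG C3H mouse 2 lay with 129, and the difference was -1.33 without mouse 2 (limma adjusted p = 0.0024). Chil3, a chitinase-like protein of mouse macrophages, was 7.96, 7.26 and 8.08 in AKR/J and 7.93, 8.71 and 10.11 in BALB/cJ, against 9.87 to 10.20 in 129 and 9.14 to 10.31 in C3H TG lungs (-1.51 ± 0.34, limma adjusted p = 0.011). TG BALB/cJ mouse 3 lay in the nonEmp range, close to the WT BALB/cJ mouse at 10.26, and without it the difference was -1.81 (limma adjusted p = 0.0014). Of 23 genes in the type 2 list 3 were lower, the third being Retnlg, and 2 were higher, Chil1 and Postn (0.30), a matricellular protein. Over all genes 4.2% were lower and 2.95% higher. The count of 3 was 0 without AKR/J and 0 with strain as a random block, where 8 and 7 genes of the list had an unadjusted p under 0.05, and it was 1 without 129.

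Retnlg was 11.42 in TG 129 mouse 1 and 6.90 to 8.81 in the other 11 TG mice (-1.43 ± 0.41, limma adjusted p = 0.046). That mouse also had S100a8 at 10.96 and S100a9 at 11.40, alarmins of neutrophils chosen here after their values were seen, whereas the other TG mice lay at 6.54 to 7.90 and 7.25 to 8.16. Without it Retnlg still differed by -0.89 (limma adjusted p = 0.013). Neither S100a8 (-0.99, limma adjusted p = 0.27) nor S100a9 (-0.83, limma adjusted p = 0.33) was called. Of 12 alveolar macrophage genes 3 were lower, Krt79, Chil3 and the scavenger receptor Marco (-0.41 ± 0.10, limma adjusted p = 0.02), beside 4.2% of all genes. The list mean was 9.44 to 9.80 in emp and 9.63 to 10.07 in nonEmp TG lungs. Without AKR/J limma called 0 of the 12, with 4 at an unadjusted p under 0.05, and it called 1 without 129 and 1 with strain as a random block.

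MHC class II genes were lower at 5 of 10 and higher at 1, H2-Ea, beside 4.2% of all genes lower and 2.95% higher. The list median was -0.38. H2-Ab1, the β chain of I-A, was 11.88, 11.89 and 11.79 in AKR/J and 12.19, 11.82 and 11.79 in BALB/cJ, against 12.93, 13.02 and 12.89 in 129 and 12.19, 12.24 and 12.05 in C3H TG lungs (-0.66 ± 0.08, limma adjusted p = 8.2e-05). The 129 mice were highest, and without them the difference was -0.27 (limma adjusted p = 0.16). Ciita, the master activator of class II transcription, was 9.33 to 9.64 in emp and 9.69 to 9.95 in nonEmp lungs, without overlap (-0.38 ± 0.07, limma adjusted p = 0.0033). H2-Eb2, H2-Eb1 and H2-Oa differed by -0.67, -0.38 and -0.38. Ciita rose with the transgene by 0.67 in emp and 0.90 in nonEmp strains, and the difference of these effects was not called (-0.23, limma adjusted p = 0.81). Without 129, 1 class II gene was lower, with strain as a random block 1, and without TG C3H mouse 2 or TG 129 mouse 3 the count was 3. AKR/J and C3H share the k haplotype at the MHC, whereas BALB/cJ and 129 each carry another, and how allele sequence changes probe binding was not tested.

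**Figure D3:**
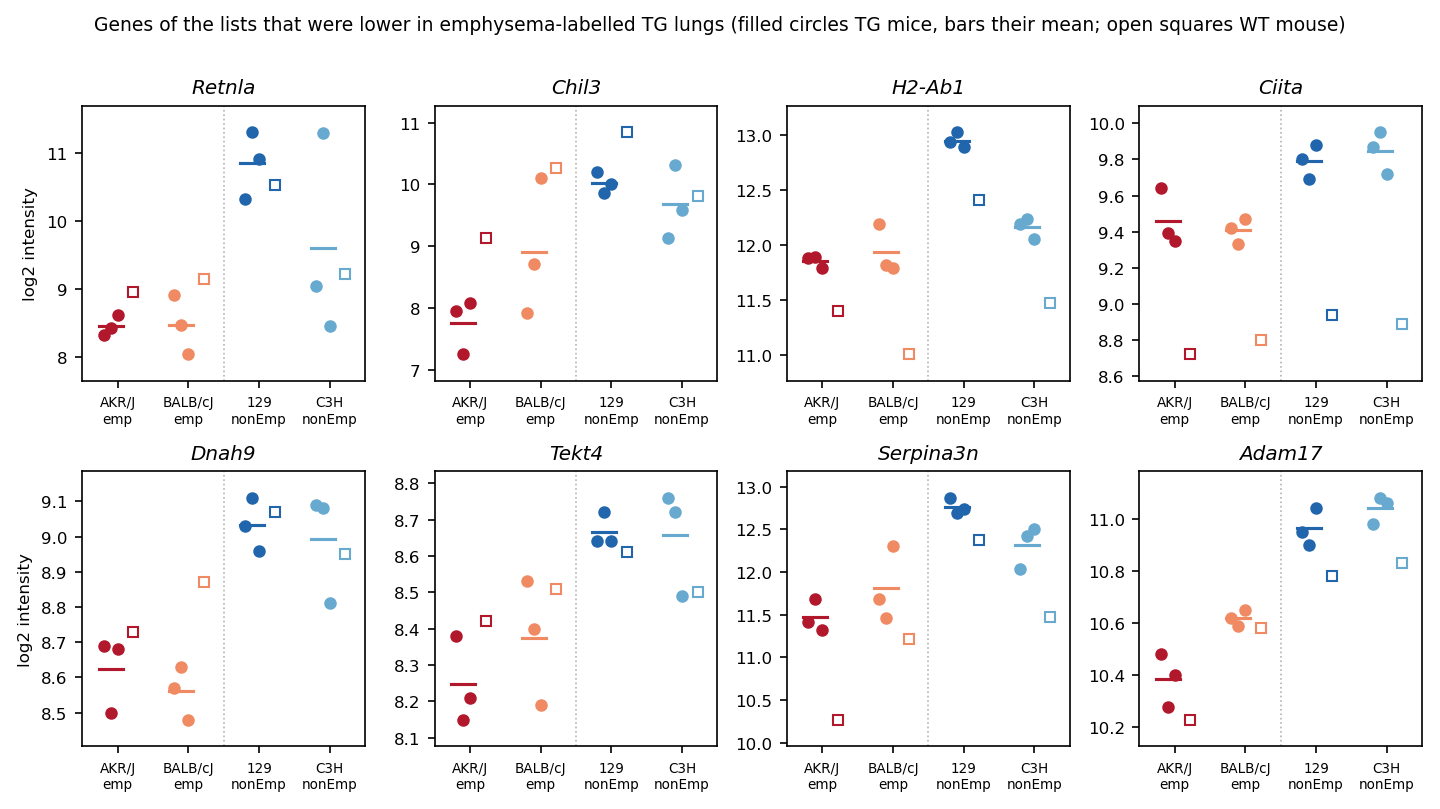
Log2 intensity (y axis) of 8 genes of the macrophage, class II, ciliary, inhibitor and protease lists in each mouse of AKR/J, BALB/cJ, 129 and C3H (x axis), with TG mice as filled circles, their mean as a bar and the WT mouse as an open square. Ciita and Adam17 show no overlap between emp and nonEmp TG mice, whereas H2-Ab1 is high in 129 (12.89 to 13.02) and Chil3 reaches 10.11 in 1 BALB/cJ TG mouse.

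Circadian clock genes had the highest share of called members among the 35 lists. These lists were chosen with earlier results of these data known, so the rank is no independent support. In the mammalian clock, CLOCK and BMAL1 activate Per, Cry, Nr1d and Ciart genes through E-boxes, the PER and CRY proteins repress that activation, and the factors DBP, TEF and HLF, opposed by NFIL3, act on D-boxes, so that lung levels of these genes change with the time of day. Of 11 measured, 8 were higher and 1, Nfil3, was lower in emp TG lungs, beside 2.95% of all genes higher and 4.2% lower. The median difference was 0.57, and Cry2 and Nr1d1 were not called. Per3 was 10.24, 10.18 and 10 in AKR/J and 8.61, 9.06 and 10.29 in BALB/cJ, against 8.66, 8.80 and 8.79 in 129 and 9.01, 8.48 and 8.78 in C3H TG lungs (0.98 ± 0.20, limma adjusted p = 0.0062). AKR/J was high in all 3 mice, whereas in BALB/cJ mouse 3 was high and mice 1 and 2 lay at nonEmp levels.

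The 300 bases around the gene start (250 before, 50 after) from RefSeq on GRCm38.p6, the C57BL/6J genome, are shown for 3 of these genes to set the known clock elements beside the values. Capitals mark the E-box CACGTG, which reads the same on both strands, and the D-box core TTATGTAA or its reverse complement. Ciart lies at chr3:95882179-95882478 on the minus strand, Tef, in the first of its 2 entries, at chr15:81802423-81802722 on the plus strand and Per3 at chr4:151044616-151044915 on the minus strand, and each is printed 5′ to 3′ along its gene.
Ciart: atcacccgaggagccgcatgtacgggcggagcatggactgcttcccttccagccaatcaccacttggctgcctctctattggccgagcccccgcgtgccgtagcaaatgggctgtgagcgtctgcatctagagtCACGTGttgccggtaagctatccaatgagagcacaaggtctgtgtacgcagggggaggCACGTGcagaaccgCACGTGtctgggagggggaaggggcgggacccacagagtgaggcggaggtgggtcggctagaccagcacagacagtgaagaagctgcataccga
Tef: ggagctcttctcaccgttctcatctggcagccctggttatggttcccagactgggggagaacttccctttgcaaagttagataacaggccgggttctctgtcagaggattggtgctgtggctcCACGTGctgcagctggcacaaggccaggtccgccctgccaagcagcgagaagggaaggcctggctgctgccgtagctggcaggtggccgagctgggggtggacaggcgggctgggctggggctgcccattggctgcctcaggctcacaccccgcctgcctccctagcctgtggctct
Per3: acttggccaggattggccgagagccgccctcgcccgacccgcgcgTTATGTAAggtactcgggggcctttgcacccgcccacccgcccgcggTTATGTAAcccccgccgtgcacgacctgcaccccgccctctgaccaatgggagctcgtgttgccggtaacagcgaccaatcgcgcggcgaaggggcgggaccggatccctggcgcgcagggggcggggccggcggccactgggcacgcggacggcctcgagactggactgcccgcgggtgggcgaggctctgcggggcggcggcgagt
Of the 11 clock genes, 10 had a promoter entry, 4 of them (Per1, Cry1, Tef and Ciart) with an E-box and 1 (Per3) with a D-box core, searched on both strands with no overlap between the motifs. Among 32851 such windows of all genes, 7.15% held the E-box, 0.938% held TTATGTAA and 0.119% held the second D-box core searched, TTACGTAA. Ciart had 3 E-boxes and Per3 had 2 D-box cores in this window. A match describes the reference sequence only, and these strains' own sequences were not analysed here.

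Other clock genes split BALB/cJ in the same way. Ciart, an E-box-driven repressor of the clock, was 10.04 to 10.19 in AKR/J and 9.46, 9.58 and 10.17 in BALB/cJ, against 8.71 to 9.24 in 129 and 9.13 to 9.65 in C3H TG lungs (0.73 ± 0.12, limma adjusted p = 0.0011). Tef was 10.50 to 10.63 in AKR/J and 9.50, 9.75 and 10.75 in BALB/cJ, against 9.62 to 9.75 in 129 and 9.53 to 9.89 in C3H TG lungs (0.57 ± 0.16, limma adjusted p = 0.035). Hlf differed by 0.94 ± 0.15, Per2 by 0.85 ± 0.21 and Nr1d2, a repressor of the positive arm, by 0.61 ± 0.14 (limma adjusted p = 0.001, 0.023 and 0.016). Per1 (0.49 ± 0.13), Cry1 (0.26 ± 0.07) and Nfil3 (-0.52 ± 0.14) completed the called genes, and these 3 are described after their values were seen. Nfil3 had the opposite order within BALB/cJ, at 7.64 in TG BALB/cJ mouse 3, against 8.52 and 8.41 in mice 1 and 2.

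Averaged over the 11 genes, the log2 intensity was 10.20, 10.26 and 10.05 in AKR/J and 9.40, 9.55 and 10.24 in BALB/cJ, against 9.55, 9.46 and 9.41 in 129 and 9.54, 9.24 and 9.48 in C3H TG lungs. The WT mice lay at 10.46 in AKR/J and 10.20 in BALB/cJ, against 9.62 in 129 and 9.64 in C3H, and in WT lungs 3 clock genes were called and the median difference was 0.67. The groups overlapped through BALB/cJ TG mice 1 and 2, while the WT BALB/cJ mouse lay with mouse 3. Without BALB/cJ 10 clock genes were higher, without C3H 3 and without 129 2. Without AKR/J limma called 0, with 5 at an unadjusted p under 0.05, and with strain as a random block it called 0, with 9. The count of 8 was 4 without TG AKR/J mouse 2, TG C3H mouse 2 or TG 129 mouse 3, and 5 without TG AKR/J mouse 1 or TG 129 mouse 2. The time of day at harvest, on which these genes depend, is not given in the sources used here, and its part in the result was not tested.

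**Figure D4:**
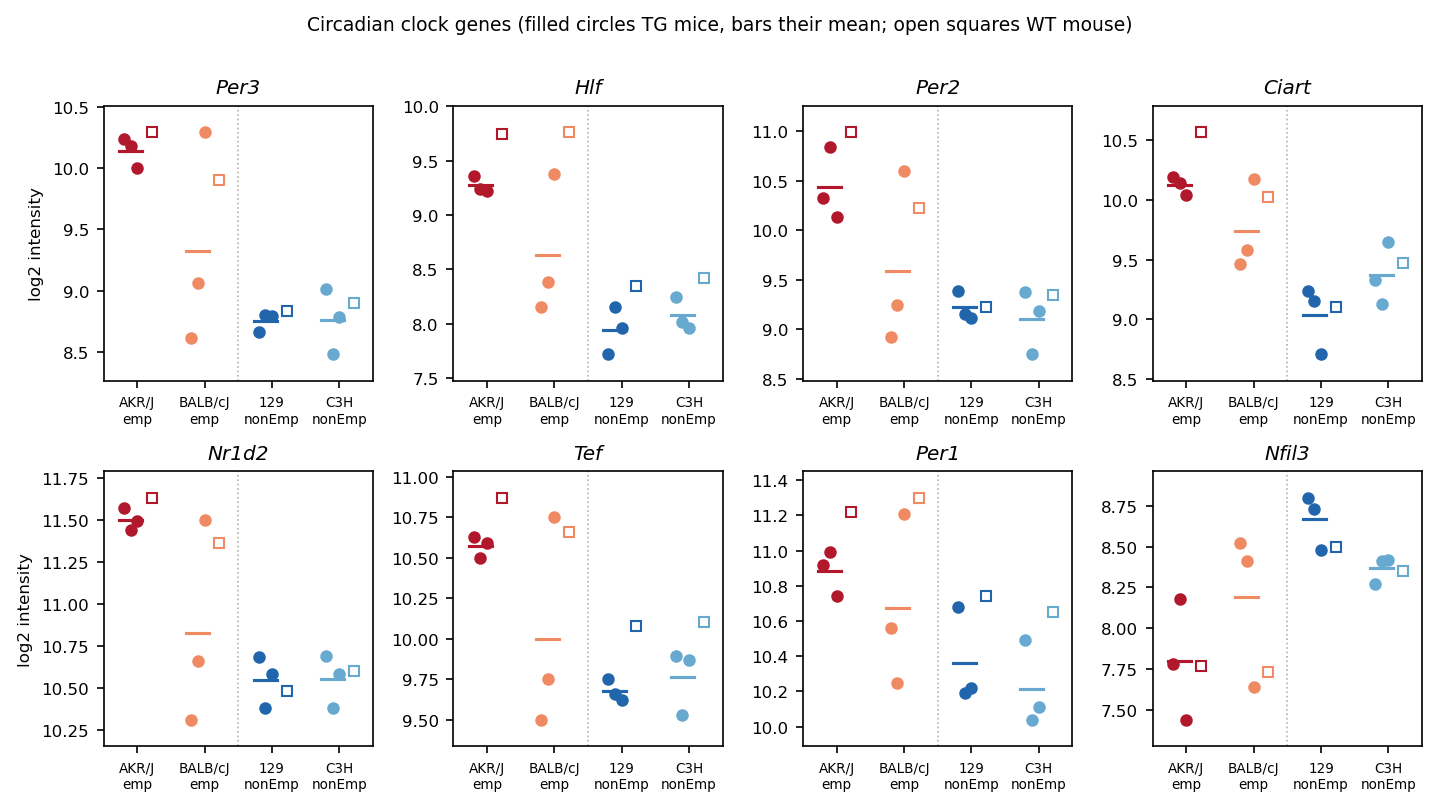
Log2 intensity (y axis) of 8 circadian clock genes in each mouse of AKR/J, BALB/cJ, 129 and C3H (x axis), with TG mice as filled circles, their mean as a bar and the WT mouse as an open square. All AKR/J mice and 1 BALB/cJ TG mouse are high for Per3 (up to 10.29), while the other BALB/cJ TG mice, at 8.61 and 9.06, lie with 129 and C3H, and Nfil3 runs the other way.

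Several lists had a small number of members called for the label, or none. By limma, interferon response genes had 0 of 25 (2 at an unadjusted p under 0.05), genes of endoplasmic reticulum stress 0 of 19 (1 at an unadjusted p under 0.05), and collagens 1 of 18, the lysyl hydroxylase Plod1 (-0.32), which turned to 0.07 without 129. Cell cycle genes had 1 of 25, Ccna2 (-0.50), and antioxidant genes had 2 of 37, the NADPH-generating transhydrogenase Nnt (0.38 ± 0.05, limma adjusted p = 0.00028, without overlap) and catalase, Cat (0.30). Of 27 apoptosis and senescence genes, the death receptors Fas (-0.50) and Tnfrsf10b (-0.61) were lower. TGF-β targets had 1 higher and 3 lower of 29, among them thrombospondin 1, Thbs1, which activates latent TGF-β (-0.66 ± 0.14, limma adjusted p = 0.0075), the matrix protein Tgfbi (-0.39) and the integrin subunit Itgav (-0.25, without overlap). Endothelial genes had 2 higher and 1 lower of 29, and T and NK cell genes 1 lower of 18. Over all genes 7.15% were called, 2.95% higher and 4.2% lower, a smaller share than among TGF-β targets and endothelial genes. Of all 13499 genes, 2787 had an unadjusted p under 0.05.

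**Figure D5:**
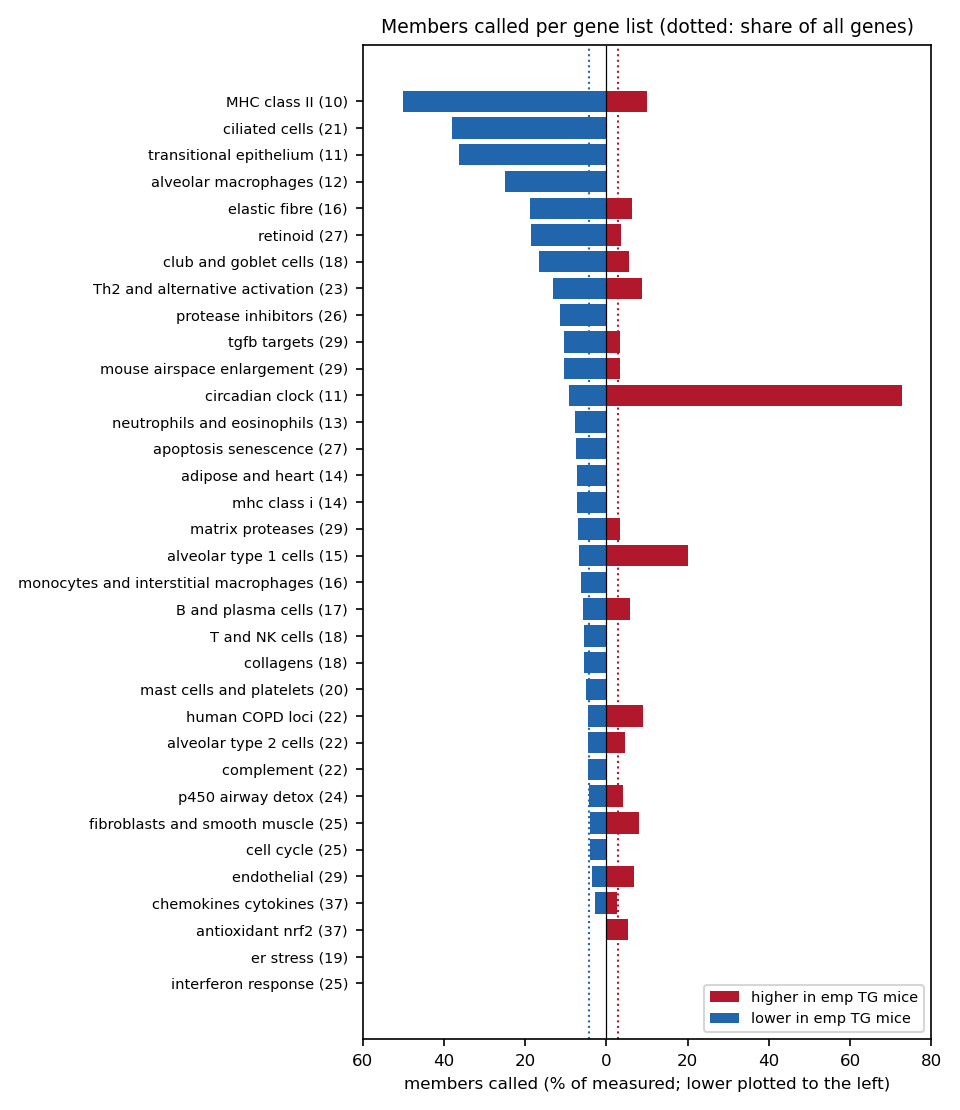
Percent of the measured genes of each list (number in parentheses) called higher (right) or lower (left) in emp than in nonEmp TG lungs, with dotted lines at the shares of all genes, 2.95% and 4.2%. Clock genes reach furthest to the right (8 of 11), and class II (5 of 10), ciliated (8 of 21) and transitional epithelium genes (4 of 11) reach furthest to the left. The lists were chosen with earlier results of these data known.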

How the data were processed

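Total RNA of right lungs was labelled with the Ambion WT Expression kit and hybridised to whole-transcript arrays, per the labels' protocols. The deposited table holds log2 intensities of 25285 probe sets on 24 arrays; its values run from 3.41 to 14.75 with array medians of 7.76 to 7.83, and the sources used here do not give the log base or how the authors summarised and normalised them, so that log2 is read from the range. Probe sets were named through the platform annotation: 14539 had 1 symbol, 781 several and 9964 none here, and 1 incomplete probe set was left out. Of the named ones 14480 matched RefSeq by Entrez ID. One probe set was kept for each of 13499 genes, that with the highest mean over the 24 arrays (590 genes had several). Coverage was high on chromosomes 1 to 4 and 10 to 19, and most genes of the others were not analysed here. Probe sets of close paralogs (the Retnl, Chil, Serpina3, Bpif and H2 families) may share signal.

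No values were changed before the fit. limma 3.58.1 in R 4.3.3 fitted the means of 12 groups of strain and genotype on all 24 arrays, with 12 residual degrees of freedom, and p-values were Benjamini-Hochberg adjusted over all genes. The label contrast is the mean of AKR/J and BALB/cJ minus the mean of 129 and C3H, so strains weigh equally. Intensity, not read depth, limits precision, as do 3 TG mice and 1 WT mouse a strain. In simulated data without differences between strains, the script recovered most 2-fold shifts. That check does not cover the label going with the strain, and recovery of smaller shifts is not reported here. Tables and figures used Python 3.11.15, pandas 2.3.3, numpy 2.4.6 and matplotlib 3.10.9.

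The mice compared and the 35 gene lists were chosen with earlier results of these data known. The text names the 15 called genes without overlap with the largest difference each way, 4 each way for WT mice, up to 8 each way for the difference of transgene effects, and up to 6 called members of a list by size of difference. Nfil3, Per1, Cry1, S100a8, S100a9, Tekt1, Clca1, Foxj1, Cfap54, Cfap44, Ift57, Spef2 and Cfap36 were added after their values were seen. Alternatives covered scaling, filters, array weights, strain as a unit or block, and leaving out each strain or TG mouse, the strains for WT and transgene contrasts being added after seeing the data.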

Additional observations from a re-analysis of the deposited data

Results flagged for a closer look

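The transgene effect differed between emp and nonEmp strains at 12 of 13499 genes by the limma interaction test, each value being the effect in emp strains minus the effect in nonEmp strains. The emp effect was the lower one for F5 (-0.99), R3hdml (-0.92), Pf4 (-0.91), P2ry12 (-0.83), Tmem50b (-0.50) and Pkig (-0.50). It was the higher one for Scarna13 (1.06), Epb41l4a (0.65), Hs2st1 (0.54), Tcl1b2 (0.53), Orm3 (0.53) and Mcpt4 (0.47). For F5, Pf4 and P2ry12 the WT BALB/cJ mouse stood apart, with a mean of 7.79 over 20 mast cell and platelet genes, against 7.16 in the WT AKR/J mouse and 7.14 and 7.36 in the WT mice of 129 and C3H. For Scarna13, a small Cajal body RNA, the WT 129 mouse stood apart at 11.25, against 9.02 to 9.24 in the other 3 WT mice. For Mcpt4, a mast cell protease, the WT C3H mouse was highest at 7.16. Hs2st1, which adds 2-O-sulfate to heparan sulfate, was 10.74 to 11.03 in emp and 10.48 to 10.84 in nonEmp TG lungs, and 10.20 and 10.25 in emp and 10.58 and 10.68 in nonEmp WT lungs, with no single WT mouse apart.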

How the results depend on the processing

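Several counts moved with the setting. The label count of 965 in TG lungs was 0 with strain means, 134 with strain as a random block (correlation 0.2), 416 without AKR/J, 467 without 129, and 1461 with array weights. Array weights also raised the WT count to 255, that of AKR/J against BALB/cJ to 608 and that of 129 against C3H to 913. Without AKR/J the WT count was 54 and the transgene count in emp strains 283, and without BALB/cJ the transgene count in emp strains was 242 and the difference count 0. Without 129 the WT count was 49, the difference count 1 and the transgene count in nonEmp strains 99, which was 339 without C3H. Median centring gave 1162 label genes, 58.5% of them higher, against 41.2% as reported.

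Leaving out 1 TG mouse gave 664 to 897 label genes, 117 to 170 in WT lungs, 2 to 14 for the difference, 591 to 872 and 549 to 813 for the transgene effect in emp and nonEmp strains, 85 to 326 for AKR/J against BALB/cJ (85 without TG BALB/cJ mouse 2) and 279 to 590 for 129 against C3H (279 without TG C3H mouse 1). Mouse numbers showed no pairing of the mice. Deviations from the group means correlated at -0.15 to 0.13 (median -0.03) between same-numbered TG mice of different groups. Between mice of other numbers they correlated at -0.16 to 0.23 (median 0), and 5 of 12 mice correlated best with their own number. With the replicate block 886 label genes and 2 difference genes were called.

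Of 3729 recomputed gene values, 2852 kept direction and side of the threshold, 855 lost the call, 10 gained one and 12 turned sign. Without AKR/J Nlrp1a was -0.05, Prss22 -0.19 and Sdf2l1 0.07. Without BALB/cJ Atf3 was 0.15 and Igfbp2 0.09. Without 129 H2-Ea was -0.05 (-0.46 in WT), Iigp1 -0.04, Pdpn -0.09 and Plod1 0.07. Without C3H Hbegf was 0.08 and the difference of Mcpt4 -0.04. The causes were not tested. Dim probe sets such as Glrb limit the size of a difference.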

Other observations

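Stromal, lymphoid and cytokine genes beyond those described were called one by one. Cthrc1, a secreted protein of activated fibroblasts, was 8.34 to 8.71 in emp and 7.65 to 8.14 in nonEmp TG lungs, without overlap (0.54 ± 0.08, limma adjusted p = 0.00044), and Rgs5, a regulator of G protein signalling in pericytes, was 7.71 to 8.68 in emp and 8.68 to 9.17 in nonEmp lungs (-0.64 ± 0.11, limma adjusted p = 0.0018). Masp1, a protease of the lectin complement pathway, was 6.42 to 7.12 in emp and 7.25 to 8.06 in nonEmp lungs, without overlap (-0.70 ± 0.10, limma adjusted p = 0.00042). Igha, the immunoglobulin A heavy chain, was 9.62 to 10.36 in 129 and 7.99 to 8.87 in the other strains (-0.83 ± 0.20, limma adjusted p = 0.016). Of 37 chemokine and cytokine genes 1 was higher and 1 lower in emp lungs, beside 2.95% of all genes higher and 4.2% lower. The higher gene was Il1a, an alarmin (0.62), and the lower was Tnf (-0.24). In 26 alternative fits Il1a kept its call in 10 and Tnf in 18, and the difference of Tnf ran from -0.47 to 0.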
